A study of Mus musculus with 22 samples.

Results

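The mouse Zfp genes are the zinc-finger protein genes whose symbol is Zfp followed only by digits, and they were chosen by that symbol alone. The rule found 294 of the 15705 genes scored at 6 months and 300 of the 15192 genes scored at 12 months. Both tables held 276 of them, and 318 were in at least 1 table. Each value is an Sd score, a linear ratio per gene and library, read here as a measure of splicing deficiency, higher where more of a gene's signal is unspliced. It is not an expression level. The scores came from poly(A) RNA of mouse cortex, sequenced in 22 libraries. Because the tables were made separately, levels at 6 and 12 months are set side by side only as descriptions, and no test was made between them.

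At 6 months there were 4 groups of littermates with 3 libraries each, from crosses of N40K-Tg +/- and FAD +/- mice. The dTg mice carried both the N40K transgene and the 5xFAD transgenes, N40K mice the first alone, 5xFAD mice the second alone, and WT mice neither. The N40K transgene makes an N-terminal piece of U1-70K, which is a component of the U1 particle of the spliceosome, and 5xFAD mice carry human amyloid precursor protein and presenilin transgenes with familial Alzheimer disease mutations. At 12 months, 6 Tau P301S libraries were set against 4 libraries of WT littermates from crosses of Tau P301S +/- with WT mice, where P301S is a mutation in a human tau transgene. The sources used here do not name the promoters of these transgenes. The dTg and N40K mice together are called carriers below, and the 5xFAD and WT mice non-carriers (6 libraries each). The p-values measure only the spread between these libraries.

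Most Zfp proteins bind DNA through C2H2 zinc fingers, short folds in which a pair of cysteines and a pair of histidines hold a zinc ion, and many carry their fingers in long tandem rows. In a large subfamily a KRAB domain precedes the fingers and binds Trim28 (KAP1), which brings in the histone methyltransferase Setdb1, HP1 proteins of the Cbx family and other repressors. These genes often lie in clusters made by tandem duplication, and many silence transposable elements or regulate other genes. The U1 particle marks 5′ splice sites at the start of splicing, so genes with introns depend on it.

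The coding sequences of GENCODE M21 show what joins the members. Of the 294 genes at 6 months, 290 had a coding sequence, and 282 of these (97.2%) held at least 1 C2H2 finger pattern, against 629 of 13837 scored genes with a coding sequence (4.55%). The pattern read in frame was a cysteine codon, 2 to 4 codons, a cysteine codon, 12 codons, a histidine codon, 3 to 5 codons and a histidine codon. The members had a median of 10 such fingers and at most 36. A KRAB codon pattern was found in 127 members and a SCAN pattern, of a domain through which zinc-finger proteins pair, in 14. GENCODE M21 lists 9 members of either table under a symbol outside Zfp, among them Zfp238, now Zbtb18.

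An adjacent pair of fingers is given for 4 members on which the results turn, to make the repeat visible. Zfp930 had the largest fall in N40K carriers and Zfp114 the largest rise. Zfp623 also fell in carriers and Zfp62 rose. Each line is the coding strand, 5′ to 3′, of the first pair of fingers that lie 7 codons apart, and capitals mark the cysteine and histidine codons of the finger pattern. Where a stretch allows more than 1 reading of the pattern, that with the shortest gaps is shown.
Zfp930: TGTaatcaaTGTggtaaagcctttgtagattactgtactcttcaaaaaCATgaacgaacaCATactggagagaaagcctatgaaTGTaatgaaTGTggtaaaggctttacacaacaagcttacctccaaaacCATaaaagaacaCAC
Zfp623: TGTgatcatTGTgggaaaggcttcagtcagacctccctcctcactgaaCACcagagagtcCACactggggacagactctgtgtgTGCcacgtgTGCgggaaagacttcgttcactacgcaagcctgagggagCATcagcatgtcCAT
Zfp114: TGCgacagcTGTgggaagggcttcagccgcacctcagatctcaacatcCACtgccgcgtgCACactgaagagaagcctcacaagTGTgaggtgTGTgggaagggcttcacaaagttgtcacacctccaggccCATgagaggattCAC
Zfp62: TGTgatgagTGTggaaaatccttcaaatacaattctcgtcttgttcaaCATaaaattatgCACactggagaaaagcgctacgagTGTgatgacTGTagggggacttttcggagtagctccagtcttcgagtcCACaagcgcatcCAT
The genes lie on chromosomes 8, 15, 7 and 11 in the order shown and had 12, 12, 10 and 25 finger patterns. Of these 4 only Zfp930 held the KRAB pattern. The 147 bases of Zfp930 were identical to those of Zfp114 at 80 positions (54.4%), to those of Zfp62 at 80 (54.4%) and to those of Zfp623 at 76 (51.7%). Fingers were 7 codons apart in 11 of 11 neighbouring pairs of Zfp930, 11 of 11 of Zfp623, 9 of 9 of Zfp114 and 23 of 24 of Zfp62. Such repeats also recur between genes: in 24 members at least 20% of the transcript words of 50 bases occurred in another gene. Of those 24 genes 1, Zfp114, passed the test of the averaged N40K effect, as a rise (4.17%). Of the other 266 members with a coding sequence 13.9% were called higher, and of all genes 10.8%. These shares were not tested against each other. The shared words of Zfp114 came to 37.9%, most of them with the predicted gene Gm15442. Its score is thus uncertain where reads could not be told apart.

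Zfp scores were modest, and few were extreme. At 6 months the mean score of a member over the 12 libraries had a median of 0.055 (quartiles 0.0277 and 0.111), against a median of 0.0315 over all genes. A mean under 0.02 was found in 45 members (15.3%), against 6065 of all genes (38.6%). Scores of 0.1 or more were found in 28.9% of members, against 24.1% of all genes, while a mean over 1 was found in 2 members (0.68%), against 412 of all genes (2.62%). At 12 months the median was 0.0282 in members, against 0.0152 in all genes, and 113 members (37.7%) lay under 0.02. Related families had median scores of 0.0512 (33 Zbtb genes), 0.0783 (17 Zscan and Zkscan genes) and 0.0363 (21 Zfp genes whose symbol has a letter suffix) at 6 months. These levels are descriptions, with no test.

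The member with the highest score at 6 months was Zfp125, for which GENCODE M21 gives no coding sequence. Its scores were 4.491, 4.768 and 5.347 in dTg, 4.229, 4.575 and 4.904 in N40K, 4.597, 2.856 and 4.577 in 5xFAD, and 3.896, 3.916 and 4.573 in WT libraries. All 12 stood above every other member's, and the groups overlapped. Next came Zfp580, from 0.995 to 1.534 over the 12 libraries, then Zfp629, Zfp939, Zfp579 and Zfp446. The lowest were Zfp521 and Zfp423, regulators of neural and blood or fat cell precursors, with Zfp35 between them. Scores of Zfp521 lay at 0.001 or 0.002, which are 1 and 2 steps of the last decimal in the file. Zfp521 and Zfp423 have among the longest introns of the members, 278745 and 292178 bases in sum.

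At 12 months the highest mean scores belonged to Zfp783, Zfp513, Zfp367, Zfp446, Zfp839 and Zfp509, and the lowest to Zfp423 and Zfp521, both at 0.001 in all 10 libraries, and Zfp664. Over the 276 members of both tables, mean WT scores at the 2 ages correlated with a Pearson's r of 0.744 and a Spearman's rho of 0.724. This is a description across genes that share libraries within each table. Zfp367 stood far from that trend: it scored 0.568 to 1.201 in Tau P301S and 0.795 to 0.981 in WT libraries at 12 months, but 0.019 to 0.024 in WT libraries at 6 months. Whether this is age or how each table was made cannot be told apart.

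The median member score of a library averaged 0.0603 ± 0.00501 in dTg, 0.0573 ± 0.00448 in N40K, 0.0542 ± 0.00388 in 5xFAD and 0.0517 ± 0.00247 in WT mice (SD, n = 3 each). It spanned 0.0565 to 0.066 in dTg and 0.05 to 0.0545 in WT libraries, which did not overlap, while the N40K span of 0.0545 to 0.0625 and the 5xFAD span of 0.051 to 0.0585 did. The highest member median of its group was in dTg replicate 2 and in N40K replicate 1. These 2 libraries were also highest in their groups in 34 and 28 of the 39 genes called higher in carriers below, so the adjusted p without both is given for each gene whose rise or fall in carriers is described with its scores. At 12 months the library median averaged 0.0278 ± 0.00204 in Tau P301S (n = 6) and 0.0267 ± 0.0053 in WT mice (n = 4), with overlapping spans. Of 17 markers fixed for cortical cell types, 13 had a row at 6 months and 15 at 12 months. Cldn5 of endothelium and Gabra6 of cerebellum had none in either table, and Mbp and Cx3cr1 had none at 6 months. Since scores are ratios, cell type content and RNA quality could not be read from them, and their part in any result was not tested.

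**Figure D1:**
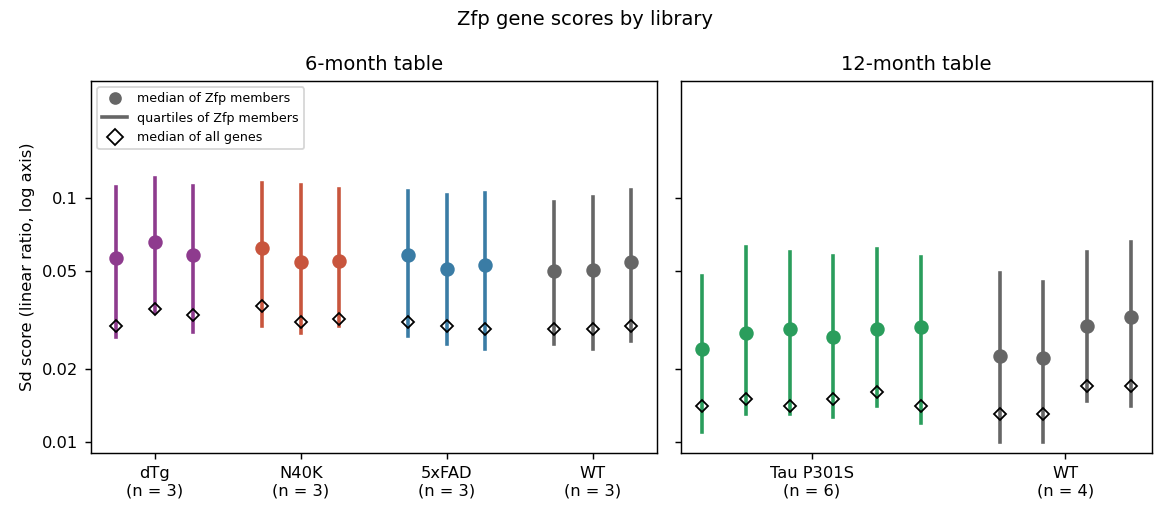
Sd scores of the Zfp genes in each library (vertical log axis), at 6 months on the left and 12 months on the right. Filled points are the median over members in 1 library, lines their quartiles, and open diamonds the median over all genes. Members lie above all genes in each library, and dTg replicate 2 and N40K replicate 1 hold the top points of their groups.

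The main question was whether the U1-70K fragment changed Zfp scores. Averaged over 5xFAD status, carriers had higher scores than non-carriers in 39 members and lower scores in 5, by limma's moderated test on log2(score + 0.002) at an adjusted p under 0.05 (Benjamini-Hochberg, across all genes). Together these 44 were 15.0% of members. Over all genes 11.7% passed in either direction, 10.8% higher and 0.936% lower. So the members called higher were 13.3% against 10.8%, a share near the background, and those called lower 1.7% against 0.936%, which rests on 5 genes. The median member changed by a log2 of 0.16 (1.12-fold), against 0.09 (1.07-fold) over all genes. A change above 0 was found in 231 members (78.6%), against 72.2% of all genes. In 22 members every carrier library lay above every non-carrier library, and in 2 every one lay below. Over all genes these shares were 5.11% and 0.395%.

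The rise of the called genes was uneven over the carrier libraries. All 39 genes called higher lay above the non-carrier mean in each of the 6 carrier libraries, which their selection from these libraries largely fixes. The median log2 distance of the 39 genes from that mean was 0.32, 0.58 and 0.30 in dTg replicates 1 to 3, and 0.48, 0.32 and 0.28 in N40K replicates 1 to 3. Without both dTg replicate 2 and N40K replicate 1, 10 members were called higher and 3 lower. Leaving out 1 library at a time gave 20 to 51 calls. It gave 20 without dTg replicate 2, N40K replicate 1 or 5xFAD replicate 3, 21 without WT replicate 1 or 2, 24 without 5xFAD replicate 2 and 26 without 5xFAD replicate 1. Of the 39 rises 14 passed in every such omission, and of the 5 falls 2 did.

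How the libraries are scaled also mattered. Centring each library on its median moved the median change over all genes to -0.04 and the median member change to 0.02, and left 12 members called higher and 7 lower (63.2% higher, against 88.6% without centring). Of the 39 rises 12 still passed and 38 kept a change above 0, Zfp940 being the exception at -0.01. All 5 falls passed. The rises below are therefore relative to no recentring, and the members' median lay 0.07 above that of all genes without centring. Shares of all genes called with centring or with libraries left out are not given here. Member counts under those settings are therefore not read as particular to the members.

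The largest rise was in Zfp114. Its scores were 0.085, 0.129 and 0.131 in dTg, 0.119, 0.090 and 0.134 in N40K, 0.071, 0.028 and 0.072 in 5xFAD, and 0.041, 0.036 and 0.041 in WT libraries. Every carrier library was above every non-carrier one, and 2 of the 5xFAD libraries were well above the WT libraries. The averaged change was 2.42-fold (log2 1.28 ± 0.24 SE, limma adjusted p = 0.0156), and the adjusted p was 0.0689 without both high libraries.

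Zfp831 scored 0.029, 0.041 and 0.033 in dTg, 0.043, 0.031 and 0.030 in N40K, 0.024, 0.023 and 0.019 in 5xFAD, and 0.022, 0.016 and 0.021 in WT libraries. It too was separated in all libraries, at 1.59-fold (log2 0.67 ± 0.12 SE, limma adjusted p = 0.0154). Zfp238, the repressor also named Zbtb18 or RP58 that is needed for cortical neurons to form, scored 0.017, 0.027 and 0.024 in dTg, 0.026, 0.021 and 0.021 in N40K, 0.011, 0.016 and 0.014 in 5xFAD, and 0.015, 0.012 and 0.015 in WT libraries. The carriers were all higher, though dTg replicate 1 was only 1 step of the last decimal above the highest non-carrier. The rise of Zfp238 was 1.55-fold (log2 0.63 ± 0.13 SE, limma adjusted p = 0.0179). Without both high libraries the adjusted p was 0.0377 for Zfp831 and 0.0681 for Zfp238.

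Zfp169, a KRAB gene with 17 finger patterns, scored 0.045, 0.055 and 0.050 in dTg, 0.052, 0.053 and 0.052 in N40K, 0.031, 0.030 and 0.041 in 5xFAD, and 0.026, 0.038 and 0.034 in WT libraries. The N40K libraries were nearly equal and no carrier reached down to a non-carrier. Its rise was 1.52-fold (log2 0.60 ± 0.10 SE, limma adjusted p = 0.0128, and 0.0541 without both high libraries). Zfp292 and Zfp704 had long introns and very low scores. Zfp292, a large protein linked to neurodevelopment in human genetics, scored 0.006 to 0.009 in carriers (median 0.0065) and 0.003 to 0.005 in non-carriers (median 0.004), a 1.5-fold rise (limma adjusted p = 0.0125, and 0.0222 without both high libraries). Zfp704 scored 0.004 to 0.006 in carriers (median 0.004) and 0.002 to 0.003 in non-carriers (median 0.0025), a 1.41-fold rise (limma adjusted p = 0.00714, and 4.12e-05 without both high libraries). Both were separated without overlap, yet the groups lay 1 step of the last decimal apart. Zfp704 scored 0.004 in every N40K, 0.003 in every 5xFAD and 0.002 in every WT library. Without both high libraries its rounded scores had no spread left within any group. The smaller adjusted p of Zfp704 there rests on that rounding and is not read as a firmer rise. The other 33 rises spanned 1.09-fold (Zfp940) to 1.52-fold (Zfp329), and Zfp62 had the smallest adjusted p among all 39, at 0.00659 (0.0188 without both high libraries).

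Of the 5 falls, Zfp930 was the deepest. It scored 0.049, 0.046 and 0.051 in dTg, 0.042, 0.049 and 0.047 in N40K, 0.082, 0.080 and 0.085 in 5xFAD, and 0.113, 0.066 and 0.096 in WT libraries. The carriers formed a tight group below all non-carriers, and WT replicate 2 lay below the 5xFAD libraries. The score was 0.561-fold (log2 -0.83 ± 0.11 SE, limma adjusted p = 0.00713).

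Zfp623 scored 0.033, 0.031 and 0.031 in dTg, 0.026, 0.032 and 0.033 in N40K, 0.042, 0.044 and 0.045 in 5xFAD, and 0.043, 0.042 and 0.048 in WT libraries. Again no library overlapped, at 0.716-fold (log2 -0.48 ± 0.061 SE, limma adjusted p = 0.00659). These 2 genes, whose finger pairs are printed above, passed in every omission of 1 library. Without both high libraries the adjusted p was 0.0277 for Zfp930 and 0.00393 for Zfp623. They are the only members with all carriers below all non-carriers.

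The other 3 falls were less firm. Zfp46 scored 0.041, 0.023 and 0.024 in dTg, 0.023, 0.041 and 0.034 in N40K, 0.061, 0.042 and 0.056 in 5xFAD, and 0.039, 0.052 and 0.050 in WT libraries. The groups overlapped at WT replicate 1, and the score was 0.623-fold (limma adjusted p = 0.0451). Zfp641 was 0.85-fold (carriers 0.119 to 0.158, non-carriers 0.138 to 0.176, limma adjusted p = 0.0492), and Zfp526 was 0.893-fold (carriers 0.111 to 0.123, non-carriers 0.122 to 0.138, limma adjusted p = 0.0345). Zfp46, Zfp641 and Zfp526 lost their calls in 9, 9 and 8 of the 12 omissions of 1 library, with adjusted p-values up to 0.108, 0.107 and 0.08. Without both high libraries their adjusted p-values were 0.18, 0.193 and 0.122.

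**Figure D2:**
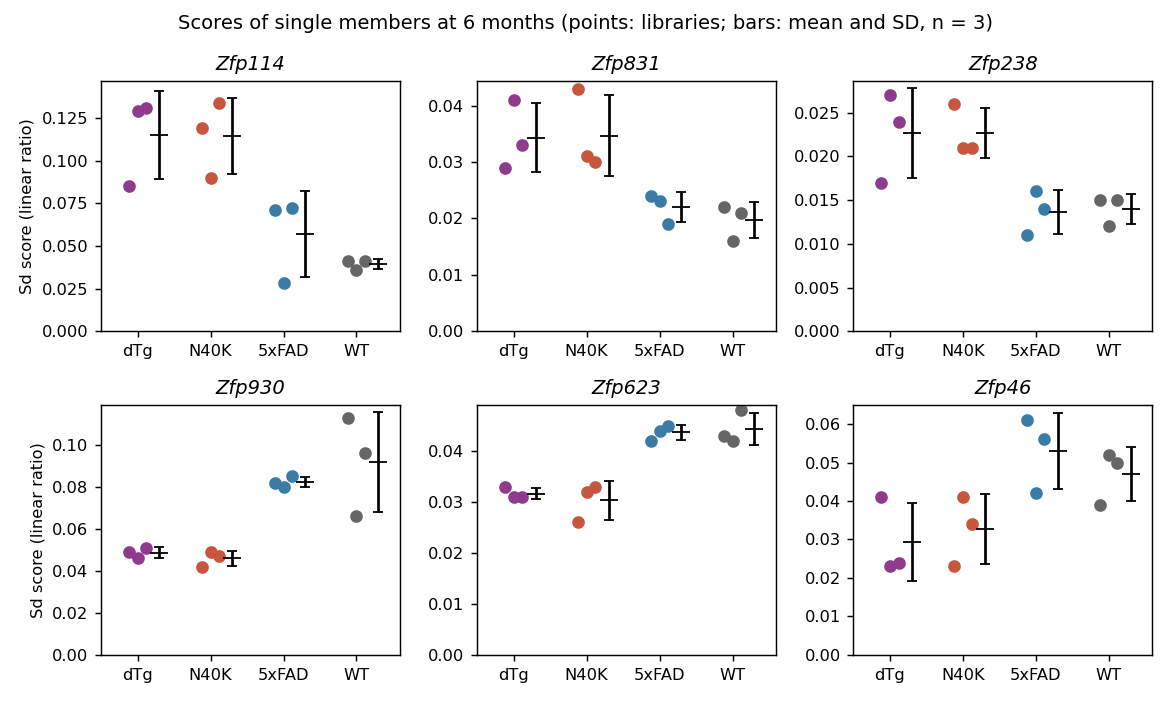
Sd scores (linear axis from 0) of 6 members at 6 months, with 1 point per library and the mean and SD of each group (n = 3) beside the points. The upper row holds the 3 largest rises, Zfp114, Zfp831 and Zfp238, and the lower row the 3 largest falls. In Zfp930 and Zfp623 all dTg and N40K points lie below all 5xFAD and WT points, while Zfp46 overlaps.

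The members with a known role were described by lists. The lists were chosen with results of these data known and are no independent evidence. Over all genes 10.8% were called higher, 29.1% had an unadjusted p under 0.05, 72.2% changed above 0 and the median change was 0.09, and each list is to be read against these shares. Of 6 scored regulators of imprinting and retroelements none passed the limma test, 2 had an unadjusted p under 0.05, and their median change was 0.14, against 0.09 over all genes. Zfp445, which keeps imprints with Zfp57, changed 1.13-fold (limma adjusted p = 0.0523). Zfp568, a repressor of a placental Igf2 promoter, changed 1.29-fold (limma adjusted p = 0.293). Zfp708 changed 1.27-fold and Zfp809, which silences retroviral DNA in mouse embryonic cells, changed 1.05-fold, and neither passed.

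Of 6 scored genes for RNA binding and translation quality control, 1 passed. Zfp106, an RNA-binding protein that motor neurons and muscle need in mice, rose 1.17-fold (limma adjusted p = 0.0349), with 0.005 to 0.007 in carriers against 0.004 to 0.005 in non-carriers. The groups met at 0.005. The call was lost in 8 of 12 omissions of 1 library (adjusted p up to 0.0822), without both high libraries (0.138) and with libraries centred (0.273). Zfp207, a spindle and Bub3 partner, changed 1.11-fold, Zfp326, which couples transcription to splicing, 1.1-fold, and Zfp622, a ribosome maturation factor, 1.05-fold, and none of them passed. The median change of the list was 0.10, against 0.09 over all genes.

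Of 11 scored genes for neural development and glia, 2 passed, Zfp292 and Zfp238, both described above. The median change was 0.21, against 0.09 over all genes, and 10 of the 11 lay above 0, against 72.2% of all genes. The 2 of 11 called stand against 10.8% of all genes called higher. Zfp423 changed 1.34-fold (limma adjusted p = 0.0583) and Zfp365, a partner of DISC1, changed 1.21-fold (limma adjusted p = 0.0635). Zfp423 scored 0.003, 0.004 and 0.003 in dTg, 0.006, 0.003 and 0.003 in N40K, 0.003, 0.002 and 0.002 in 5xFAD, and 0.002 in all 3 WT libraries, so its groups met at 0.003. Zfp488, an oligodendrocyte regulator, was the 1 member of the list below 0, at 0.823-fold (limma adjusted p = 0.24).

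Of 11 scored general transcription regulators, 1 passed. Zfp260 scored 0.078, 0.106 and 0.078 in dTg, 0.089, 0.078 and 0.075 in N40K, 0.060, 0.072 and 0.057 in 5xFAD, and 0.056, 0.056 and 0.072 in WT libraries. All carriers were above all non-carriers, and dTg replicate 2 was the highest (1.34-fold, limma adjusted p = 0.0355). The call was lost in 8 of 12 omissions of 1 library (adjusted p up to 0.0838), without both high libraries (0.118) and with libraries centred (0.0648). Zfp110, a partner of the p75 neurotrophin receptor also named NRIF, changed 1.15-fold (limma adjusted p = 0.0672). Zfp148 changed 1.18-fold and Zfp91, a ubiquitin ligase, 1.17-fold, and neither passed. The median change of the list was 0.12, against 0.09 over all genes, and 9 of the 11 lay above 0.

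The co-repressors that KRAB proteins call on are not members. Of 14 such genes 3 passed, all higher in carriers, where 10.8% of all genes did: the HP1 gene Cbx3 (1.19-fold, limma adjusted p = 0.0324), the Setdb1 partner Atf7ip (1.19-fold, limma adjusted p = 0.041) and Setdb1 (1.16-fold, limma adjusted p = 0.0452). Their calls were lost in 7, 10 and 9 of 12 omissions of 1 library, and without both high libraries the adjusted p was 0.0523, 0.09 and 0.137. With libraries centred the limma adjusted p was 0.154, 0.155 and 0.291, so all 3 calls were lost there too. The median change of the list was 0.09, against 0.09 over all genes. Trim28, which binds the KRAB domain itself, stood at 0.999-fold (limma adjusted p = 0.993). Among related families 5 of 33 Zbtb genes, 3 of 17 Zscan and Zkscan genes and 2 of 21 Zfp genes with a letter suffix passed, all higher. These were 15.2%, 17.6% and 9.52%, against 10.8% of all genes. Their median changes were 0.14, 0.08 and 0.13, against 0.16 in the members and 0.09 over all genes, and no test of a difference between families was made.

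Within the members, genes with and without the KRAB pattern were called higher at similar shares, which were not tested against each other. Of 127 members with it 18 were called higher and 2 lower (14.2% higher), and of 163 without it 20 were called higher and 3 lower (12.3% higher). Median changes were 0.15 and 0.17. By finger number, 6 of 54 members with 1 to 5 fingers (11.1%) and 12 of 91 with 6 to 10 (13.2%) were called higher. So were 13 of 90 with 11 to 15 (14.4%) and 7 of 47 with 16 or more (14.9%). Over all genes 10.8% were called higher and 0.936% lower, and the shares of these classes lay near the former. Of the 5 falls 4 had 11 to 15 fingers, a class that holds 90 of the 290 members with a coding sequence. None of this was tested.

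Intron length moved with the calls. The summed intron length was available for all 294 members, and they fell into 4 bins of about equal size, with 53 to 7004, 7056 to 12183, 12480 to 22747 and 22792 to 446529 bases. From the shortest to the longest bin, 5.41%, 13.5%, 15.1% and 19.2% of the members were called higher in carriers. Among all genes in the same length ranges the shares were 4.06%, 7.3%, 8.8% and 16.1%. Median member changes were 0.09, 0.14, 0.18 and 0.20, against 0.02, 0.08, 0.11 and 0.14 for all genes of those ranges. Of the 5 falls 4 were in the shortest bin and Zfp930 in the third. Over all genes 66 of 3598 were called lower in the shortest range, and 13 of 1823, 18 of 2466 and 45 of 6967 in the longer ones.

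Levels ran the other way along intron length. Median member scores were 0.0985, 0.0638, 0.0507 and 0.0277 in the same bins, and the Spearman's rho between intron length and mean score was -0.423 over members and -0.617 over all genes. The rho between intron length and the averaged N40K change was 0.175 over members and 0.231 over all genes. These are descriptions across genes of the same libraries. Score level thus moves with intron length, and the part of either in the calls was not tested.

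**Figure D3:**
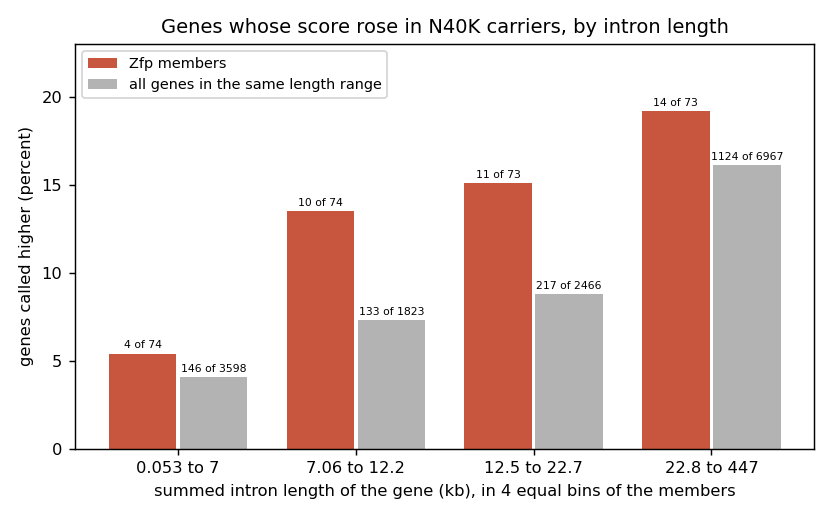
Share of genes called higher in N40K carriers (percent, bars from 0), by bin of the members' summed intron length in kb. Coloured bars are Zfp members and grey bars all genes in the same length range, with the number called of the number scored above each bar. The member share is 5.41% in the shortest bin and 19.2% in the longest, and exceeds that of all genes in each bin.

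Neighbouring members differed among themselves in their changes. In 9 runs of at least 4 members with at most 1 other gene between neighbours lay 69 members. The longest run, 13 genes on chromosome 7 with Zfp260, Zfp568, Zfp74, Zfp82 and Zfp940 among them, had 4 genes called higher and 11 above 0. A run of 9 on the same chromosome held Zfp114 and Zfp180, which rose 1.3-fold (limma adjusted p = 0.0357, and 0.12 without both high libraries), and its changes spanned -0.10 to 1.28. In the run of Zfp26, Zfp266, Zfp426, Zfp560 and Zfp846 on chromosome 9 all 5 changes lay above 0 and 2 were called. The run of 9 on chromosome 13 had no call by limma and 6 changes above 0. Over all genes 10.8% were called higher and 72.2% changed above 0, and no run was tested against these shares. None of these 9 runs held a gene called lower, where only 5 of all 294 members and 0.936% of all genes were.

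The N40K effect could be read apart in mice without and with the 5xFAD transgenes, in pairs of groups that share no library. In N40K minus WT, no member passed the limma test, while 71 (24.1%) had an unadjusted p under 0.05, against 18.9% of all genes. Over all genes 0.178% passed. In dTg minus 5xFAD likewise no member passed and 62 (21.1%) had an unadjusted p under 0.05, against 18% of all genes, of which 0.312% passed. Median member changes were 0.17 in both comparisons, against 0.10 over all genes in both. With eBayes set to trend and robust no member passed either comparison. Leaving out dTg replicate 2 gave 10 calls in N40K minus WT, and leaving out WT replicate 2 or 5xFAD replicate 2 gave 1 each. In dTg minus 5xFAD leaving out N40K replicate 1 gave 3 calls, and leaving out WT replicate 2, dTg replicate 2 or dTg replicate 3 gave 1 each.

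Over members both changes had the same sign in 77.6% (191 above and 37 below 0), against 70.9% of all genes. Pearson's r was 0.592 and Spearman's rho 0.572 over the 294 members, and Pearson's r was 0.511 over all genes. The members with the smallest p in N40K minus WT were Zfp704 (1.5-fold), Zfp623 (0.696-fold) and Zfp62 (1.42-fold), each with a limma adjusted p of 0.0567. In dTg minus 5xFAD they were Zfp623 (0.737-fold, limma adjusted p = 0.0749), Zfp62 (1.34-fold, limma adjusted p = 0.0851) and Zfp386 (1.35-fold, limma adjusted p = 0.0879). Zfp62 scored 0.101, 0.107 and 0.092 in dTg, 0.110, 0.103 and 0.101 in N40K, 0.070, 0.080 and 0.073 in 5xFAD, and 0.081, 0.066 and 0.073 in WT libraries. All carriers lay above all non-carriers, in both pairs of groups.

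**Figure D4:**
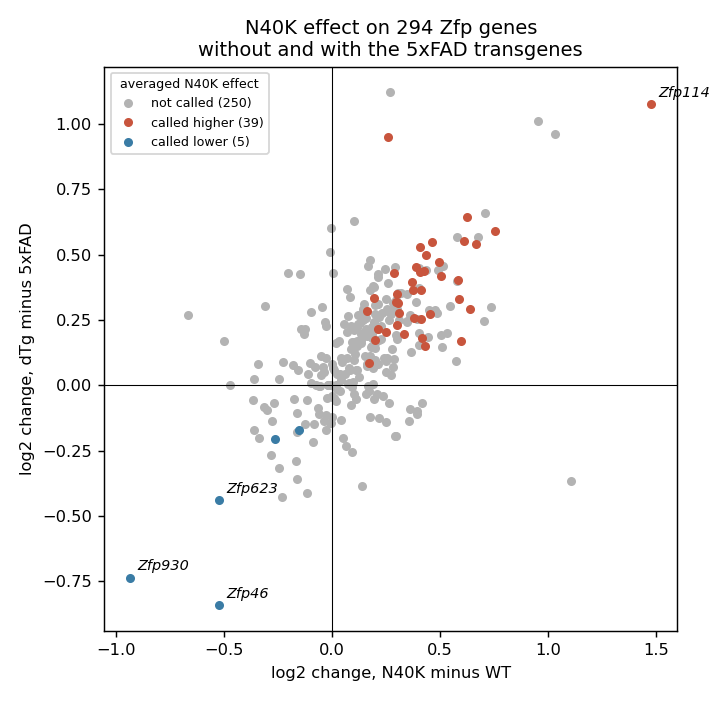
Log2 change of each of the 294 members in N40K minus WT (horizontal) and in dTg minus 5xFAD (vertical), which share no library. Colours mark the 39 members called higher, the 5 called lower and the 250 not called in the averaged N40K effect. All 44 called members lie in the upper right or lower left quadrant, which a call on the average of both changes largely fixes. Zfp114 and Zfp930 stand farthest out among the called members.

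Whether the N40K effect differed with 5xFAD was asked by the interaction term. No member passed, and 9 (3.06%) had an unadjusted p under 0.05, against 2.87% of all genes, of which 0.0191% passed the limma test. The smallest p belonged to Zfp715, Zfp174 and Zfp74, all with a limma adjusted p of 1. Zfp174 scored 0.051, 0.077 and 0.059 in dTg, 0.033, 0.041 and 0.047 in N40K, 0.054, 0.048 and 0.050 in 5xFAD, and 0.083, 0.046 and 0.070 in WT libraries. The groups overlapped, and the spread among WT libraries was wide. A difference that did not pass does not show that the effects were alike.

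No member was called for the 5xFAD transgenes. Averaged over N40K status, none passed limma's test in 5xFAD-carrying mice against the others, with 18 (6.12%) at an unadjusted p under 0.05, against 6.17% of all genes, of which 0.0446% passed. The median member change was 0.03, against 0.01 over all genes. The smallest p belonged to Zfp2 (1.14-fold, limma adjusted p = 0.42), Zfp704 (1.17-fold, limma adjusted p = 0.497) and Zfp626 (1.19-fold, limma adjusted p = 0.617). Zfp2 scored 0.086, 0.096 and 0.084 in dTg, 0.092, 0.087 and 0.086 in 5xFAD, 0.076, 0.082 and 0.080 in N40K, and 0.083, 0.072 and 0.071 in WT libraries. Its dTg and 5xFAD libraries all lay above its N40K and WT libraries, by 1 step of the last decimal at the closest.

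Single comparisons gave the same count. In 5xFAD minus WT no member passed limma's test and 15 (5.1%) had an unadjusted p under 0.05, against 4.39% of all genes. Zfp74 (1.3-fold), Zfp704 (1.25-fold) and Zfp2 (1.17-fold) had the smallest p. Leaving out dTg replicate 2 gave 1 call. In dTg minus N40K no member passed and 10 (3.4%) had an unadjusted p under 0.05, against 5.14% of all genes. Zfp11 (0.682-fold), Zfp626 (1.25-fold) and Zfp174 (1.51-fold) had the smallest p there. Over all genes 0.0191% passed in each. With eBayes set to trend and robust no member passed in these comparisons, in the averaged 5xFAD effect or in the interaction. The changes in 5xFAD minus WT and dTg minus N40K, which share no library, had the same sign in 54.8% of members, against 52.6% of all genes, with a Pearson's r of 0.056 over members.

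Mice with both sets of transgenes were compared with WT directly. In dTg minus WT, 8 members were called higher and 2 lower (3.4% of members, limma), against 1.57% of all genes, 1.41% higher and 0.166% lower. The median member change was 0.18, against 0.11 over all genes. The largest rises were Zfp704 (1.65-fold, adjusted p = 0.0198), Zfp292 (1.64-fold, adjusted p = 0.0465), Zfp626 (1.53-fold, adjusted p = 0.0465), Zfp644 (1.49-fold, adjusted p = 0.0475), Zfp74 (1.46-fold, adjusted p = 0.0421) and Zfp266 (1.43-fold, adjusted p = 0.0408), all by limma. Zfp386 and Zfp62 were the other 2 rises, and Zfp930 (0.553-fold) and Zfp623 (0.727-fold) the falls, each with a limma adjusted p of 0.0421.

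Zfp626 scored 0.055, 0.066 and 0.049 in dTg, against 0.032, 0.037 and 0.040 in WT libraries. Zfp644 scored 0.041, 0.045 and 0.035 in dTg, against 0.026, 0.025 and 0.028 in WT libraries. Neither overlapped, and dTg replicate 2 was the highest in both. Zfp74 scored 0.067, 0.088 and 0.076 in dTg and 0.054, 0.052 and 0.049 in WT libraries, and its 5xFAD libraries at 0.071, 0.069 and 0.064 were also above all WT libraries. Zfp266 scored 0.129, 0.148 and 0.108 in dTg, against 0.085, 0.088 and 0.093 in WT libraries, without overlap. Zfp704 scored 0.004, 0.006 and 0.004 in dTg, against 0.002 in each WT library, only a few steps of the last decimal.

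The calls in dTg minus WT changed when almost any library was left out, also N40K and 5xFAD libraries, which are not in the comparison. Apart from that of Zfp704, their limma adjusted p-values lay at 0.0408 to 0.0475, near the threshold of 0.05. No call remained when WT replicate 1 or WT replicate 3 was left out. There was 1 call without WT replicate 2, N40K replicate 2, N40K replicate 3, 5xFAD replicate 1, 5xFAD replicate 3 or dTg replicate 2, and there were 3 without 5xFAD replicate 2 or dTg replicate 1. There were 15 without N40K replicate 1, and 3 without both it and dTg replicate 2. All 8 rises kept a change above 0 when libraries were centred on their medians, but 1 passed, and 1 of the 2 falls passed.

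At 12 months no member was called for the tau transgene. None of 300 passed limma's test in Tau P301S minus WT, and 25 (8.33%) had an unadjusted p under 0.05, against 8.28% of all genes, of which 0.00658% passed. With eBayes set to trend and robust no member passed either. The median member change was 0.01, against -0.02 over all genes. No member passed when any 1 of the 10 libraries was left out.

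The 3 members with the smallest p were Zfp68, Zfp142 and Zfp429. Zfp68 scored 0.030 to 0.038 in Tau P301S (median 0.0335) and 0.024, 0.026, 0.031 and 0.027 in WT libraries, a 1.23-fold difference (limma adjusted p = 0.388). Zfp142 scored 0.046 to 0.104 in Tau P301S (median 0.066) and 0.036, 0.041, 0.043 and 0.049 in WT libraries, a 1.54-fold difference (limma adjusted p = 0.454). Zfp429 scored 0.028 to 0.089 in Tau P301S (median 0.056) and 0.014, 0.015, 0.027 and 0.040 in WT libraries, a 2.2-fold difference (limma adjusted p = 0.48). In each the Tau P301S median was higher, and the lowest Tau P301S library lay within the WT range.

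No member called in N40K carriers was called in Tau P301S mice. There 0.00658% of all genes passed and none of the 300 members did, so this absence is not particular to the called members. Of the 39 rises 36 had a 12-month score, and 15 of these lay above 0 in Tau P301S minus WT, where 44.9% of all genes did. Their median was -0.04, against -0.02 over all genes. An unadjusted p under 0.05 was found in 3 of the 36, against 8.28% of all genes, and an adjusted one in none. All 5 falls had a 12-month score, 1 lay above 0, and the median was -0.06. Zfp526 was the 1 fall with an unadjusted p under 0.05 (0.789-fold, limma adjusted p = 0.586). Zfp930 scored 0.013 to 0.018 in Tau P301S (median 0.0135) and 0.014 to 0.018 in WT libraries (0.946-fold, limma adjusted p = 0.88). Zfp623 scored 0.03 to 0.059 in Tau P301S (median 0.0505) and 0.04 to 0.064 in WT libraries (0.959-fold, limma adjusted p = 0.975). Zfp114 spanned 0.028 to 0.195 in Tau P301S and 0.077 to 0.13 in WT libraries, so the WT range lay within the Tau P301S range. The difference between the N40K and tau effects was not tested, as age, cross and table differ too.

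**Figure D5:**
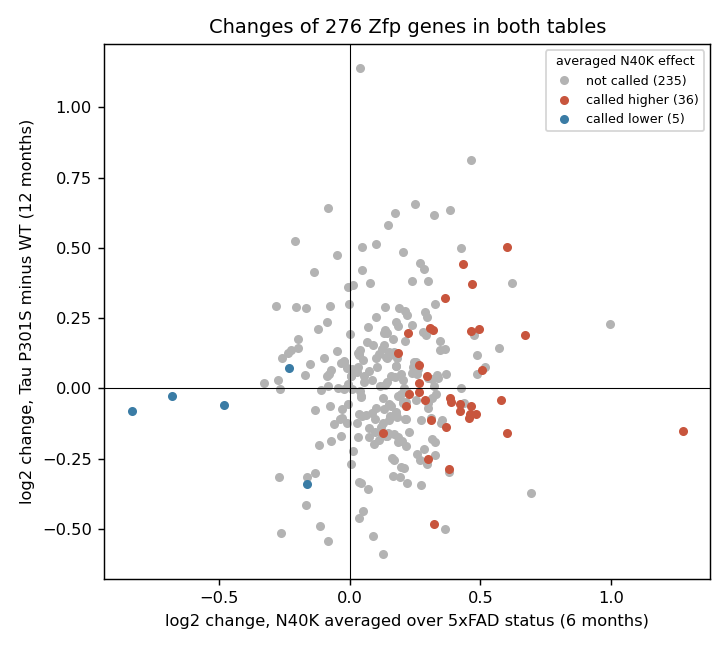
Log2 change of the 276 members scored in both tables, for the N40K effect averaged over 5xFAD status at 6 months (horizontal) and for Tau P301S minus WT at 12 months (vertical). Colours mark the 36 members called higher, the 5 called lower and the 235 not called in the N40K effect. Of the 36 called higher, 15 lie above 0 on the vertical axis.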

How the data were processed

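Sd scores were deposited by the authors as 2 tables of linear ratios per gene and library, rounded to 3 decimals. Libraries were poly(A)-selected, stranded TruSeq preparations of cortex read as 100-base pairs, per the labels' protocols. The submitters' processing notes name CASAVA, STAR, BWA, bedtools 2.16.1 and mm9. The formula of the score, the counter, the annotation and the depth per library are not given in the sources used here. The depth is thus unknown, and no counting interval is printed.

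Log2(score + 0.002) was fitted on all rows of a table, the pseudocount being the 5th percentile of scores above 0. It draws folds of low scores towards 1. Limma 3.58.1 in R 4.3.3 was used with 1 term per group and no recentring. The fits had 8 residual degrees of freedom and a prior of 1.2 at 6 months and 1.11 at 12 months. A call needed an adjusted p under 0.05 (two-sided, Benjamini-Hochberg across the table). The code was tested on simulated data. Alternatives were library centring, a pseudocount of 0.01, a mean score of at least 0.02, eBayes with trend and robust, a replicate block, and omission of libraries.

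Members and lists were chosen with earlier results of these data known. For each of 9 comparisons the text names up to 6 rises and 6 falls, the largest first among members whose libraries do not overlap, or the 3 smallest p-values where none passed. It also names the 6 highest and 3 lowest mean scores of a table and at most 4 members of a role list, and other names were chosen after their values were seen. Intron lengths, gene order and coding sequences came from GENCODE M21, which is on another build than the scores, so no positions are printed. Finger, KRAB and SCAN patterns were read as codons because protein sequences were not used here.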

Additional observations from a re-analysis of the deposited data

Results flagged for a closer look

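Among 26 groups of 4 or 6 libraries checked, 1 held a library far from the rest, and chance alone flags about 1 in 20 groups. The 6-month groups have 3 libraries each and lay outside this check. Zfp367 scored 1.201 in Tau P301S replicate 1, against 0.725 in the next highest and 0.568 in the lowest Tau P301S library. Its gap was 0.752 of the whole range of the 6 libraries. WT libraries of that age scored 0.795 to 0.981, and the difference between Tau P301S and WT mice was 0.814-fold (limma adjusted p = 0.75).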

How the results depend on the processing

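Counts of called members and median member changes were recomputed for 9 comparisons, and 88 of 106 values with a setting other than 1 library left out stayed within 1.5 times the count or 1 SD of the library medians. None reversed. For the averaged N40K effect, 44 calls became 19 with libraries centred (median change 0.0244), 27 with a mean score of at least 0.02 (of the 44, 8 were not tested and 9 were tested and lost), 19 with the replicate block and 13 without both N40K replicate 1 and dTg replicate 2. For dTg minus WT, 10 calls became 2 (median change 0.039), 0 (2 not tested, 8 tested and lost), 0 and 3 in the same order, and 6 with a pseudocount of 0.01. Centring gave a median of 0.01 in N40K minus WT and 0.0541 in dTg minus 5xFAD. Without both libraries there were 3 calls in N40K minus WT, 2 in dTg minus 5xFAD and 1 each in 5xFAD minus WT, the averaged 5xFAD effect and the interaction. The cause was not tested.

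Leaving out 1 library gave, in calls and median change, 20 to 51 and 0.12 to 0.18 for the averaged N40K effect, 0 to 10 and 0.12 to 0.19 for N40K minus WT, 0 to 3 and 0.12 to 0.21 for dTg minus 5xFAD, and 0 to 15 and 0.14 to 0.22 for dTg minus WT. It gave 0 to 1 and 0.01 to 0.06 for 5xFAD minus WT. It gave no call with medians of 0.00 to 0.05 for the averaged 5xFAD effect, -0.02 to 0.07 for dTg minus N40K, -0.05 to 0.04 for the interaction and -0.07 to 0.07 for Tau P301S minus WT.

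Replicate numbers were not taken to pair the libraries. Deviations of same-numbered libraries correlated between -0.2 and 0.071 in 18 pairs at 6 months and between -0.265 and 0.191 in 4 pairs at 12 months, and a library correlated best with its own number in 8 of 36 and 1 of 8 checks. Of those 8, 6 were the 6 libraries of N40K and WT mice, whose same-numbered pairs correlated at 0.015 to 0.071. Under the replicate block 16 of the 39 rises and 2 of the 5 falls passed. Of the values for single named members 771 kept their side of the threshold, 162 lost and 17 gained a call. With the score rounded to 3 decimals, members under 0.02 (45 at 6 months) resolve few steps.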
